A study of Mus musculus with 4 samples.

Results

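The genes described here encode the cohesin ring, its partner at chromatin loop anchors and its protector at centromeres. They were chosen by symbol, 10 in all, namely Smc1a, Smc1b, Smc3, Rad21, Rec8, Stag1, Stag2, Stag3, Ctcf and Sgo2a. Of these, 9 were listed among the 16861 genes of each RNA-seq library, and all 9 passed the filter on low values. Rec8, the kleisin of meiotic cohesin, was not among the listed genes, so its RNA was not analysed here.

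Germinal vesicle (GV) oocytes, which are arrested in meiotic prophase, came from antral follicles of C57BL/6J female mice that were 3 weeks old. After Hoechst staining of the DNA they were sorted by eye under a fluorescence microscope into NSN oocytes, whose nucleolus is not enclosed by chromatin, and SN oocytes, whose compacted DNA encircles it. The labels name no transgene or deletion, and per the study's methods both groups were stained in medium with milrinone, a phosphodiesterase inhibitor that keeps oocytes in prophase arrest. There were 2 NSN and 2 SN libraries, each from 15 pooled oocytes amplified by Smart-seq2, a method that primes cDNA at the poly(A) tail. The labels speak of 3 samples per group, and the 2 per group given here were analysed. The labels do not say whether the libraries came from separate animals, so the p-values measure the spread between these libraries, which may be technical.

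Cohesin is a ring built of a pair of long SMC arms, a kleisin that closes them and a STAG subunit that sits on the kleisin. It holds sister chromatids together and extrudes chromatin loops, which stop where the zinc finger protein CTCF is bound. In mouse oocytes the rings that hold sister chromatids are loaded before birth and carry meiotic subunits (Rec8, Smc1b and Stag3) next to the subunits shared by all cells, and shugoshin shields the centromeric rings from separase until the second meiotic division.

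Promoter sequences come first, so that the motifs found in them can be read. The 300 bases before the start of the canonical transcript were taken from GRCm39 (GENCODE annotation) for 9 of the 10 genes. Rec8 is among these promoters, so they are not the same 9 genes as those with RNA values. The letters TCCCGC, the core of the site of E2F6, a repressor of meiotic genes in somatic cells, occurred on either strand in 4 of the 9 promoters (Ctcf, Smc3, Sgo2a and Stag1), against 19.9% of 21769 protein-coding promoters. A core of the CTCF motif, read as CC, any 3 bases, AG, any 2 bases and GGC, occurred on either strand in 1 of the 9, that of Stag2, against 8.31% of the same promoters. The promoters of Ctcf and Smc3 are printed for TCCCGC and that of Stag2 for the CTCF core, from 5′ to 3′ on the strand of the gene. The capitals mark matches of these 2 motifs on either strand.

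Ctcf (chr8:106362622-106362921, plus strand): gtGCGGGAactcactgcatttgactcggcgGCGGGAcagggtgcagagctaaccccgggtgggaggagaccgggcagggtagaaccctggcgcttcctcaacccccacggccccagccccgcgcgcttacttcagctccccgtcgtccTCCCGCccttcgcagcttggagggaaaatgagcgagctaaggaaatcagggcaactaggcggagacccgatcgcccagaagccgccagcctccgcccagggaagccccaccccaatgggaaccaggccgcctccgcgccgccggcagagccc

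Smc3 (chr19:53588529-53588828, plus strand): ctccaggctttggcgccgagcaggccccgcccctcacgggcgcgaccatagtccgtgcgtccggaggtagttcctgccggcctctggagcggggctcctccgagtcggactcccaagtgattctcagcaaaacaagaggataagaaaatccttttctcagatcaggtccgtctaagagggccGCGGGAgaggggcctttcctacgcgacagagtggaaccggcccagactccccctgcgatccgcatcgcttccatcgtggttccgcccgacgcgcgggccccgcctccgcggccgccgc

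Stag2 (chrX:41237894-41238193, plus strand): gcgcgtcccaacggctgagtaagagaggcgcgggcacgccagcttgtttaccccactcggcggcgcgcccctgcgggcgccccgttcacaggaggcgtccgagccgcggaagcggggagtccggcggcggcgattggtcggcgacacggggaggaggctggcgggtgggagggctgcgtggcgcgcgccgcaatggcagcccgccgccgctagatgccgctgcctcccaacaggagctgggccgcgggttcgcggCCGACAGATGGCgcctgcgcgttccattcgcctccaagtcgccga

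The Ctcf promoter held 3 matches to TCCCGC, the Smc3 promoter held 1, and the Stag2 promoter held 1 match to the CTCF core. The promoters of the meiotic subunits Rec8, Smc1b and Stag3 held 0 matches to TCCCGC, as did those of Smc1a and Stag2. A further 4 motifs were searched on both strands. An E-box (CANNTG) was found in 7 of the 9 promoters against 71.5% of all promoters, and an SP1 box (GGGCGG) in 6 against 37.6%. TGACG, which lies in the cAMP response element, and TAATTG, the letters bound by the oocyte factor NOBOX, were found in 0 of the 9, against 19.9% and 9.06% of all promoters. The 9 promoters held from 9 to 46 CpG dinucleotides, and the median over all promoters was 9. A match is a description of the letters and does not show that a factor was bound, and no match says only that the letters are not in this window.

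Values are FPKM, in which the read pairs of a gene are divided by its length and by the library total. Totals, recovered from the FPKM themselves, were 17069772 to 17998361 read pairs per library, and 3 read pairs on 1 kb correspond to 0.167 to 0.176 FPKM. This floor covers counting error alone, because PCR copies of a molecule are not independent of each other. All 12 oocyte markers were listed, with summed FPKM of 23028 and 21682 in NSN and 15808 and 15172 in SN libraries, and 8 of the 12 were called lower in SN, against 1.98% of all genes tested. Of 16 granulosa or cumulus cell markers, 11 were listed, with summed FPKM of 9.90 and 14.2 in NSN and 14.4 and 14.3 in SN, 0 of the 4 tested were called by limma, and 0 had an unadjusted p under 0.05. Most of each sum came from Cyp19a1, the aromatase, at 5.81 and 8.06 FPKM in NSN and 8.38 and 8.22 FPKM in SN libraries, with both SN values above both NSN values (limma adjusted p = 0.313). Amh, Amhr2, Foxl2, Wt1 and Ptx3 were not listed, and of 6 blood cell markers only Cd68 was, at 0.594 to 0.972 FPKM. The part of these markers in the results below was not tested.

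On the log2(FPKM + 0.5) scale, 4 of the 9 genes were called higher in SN oocytes and 0 were called lower. A call needed a limma adjusted p under 0.05 over all 11672 genes tested and a fold of at least 1.2, and 5.95% of all genes tested were called higher in SN and 1.98% lower. The genes called were Smc1a, Smc3, Rad21 and Sgo2a. In 7 of the 9 genes both SN libraries lay above both NSN libraries, as they did in 44.8% of the genes tested, and in the other 2 (Stag1 and Stag3) the groups overlapped. An unadjusted p under 0.05 was found for 7 of the 9 genes (31.7% of all genes), and 8 of the 9 had a log2 difference above 0 (66.7% of all genes). The median log2 difference of the 9 genes, SN minus NSN, was 0.43, and that of all genes tested was 0.14.

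FPKM are shares of a library, so a smaller share for abundant transcripts lifts the rest. The median over all genes was not 0, and the cause of this was not tested. When each library was scaled by its median gene, the median of all genes moved to 0.01 and that of the 9 genes to 0.28. The difference of 8 of the 9 genes stayed above 0 (50.6% of all genes) and 6 had an unadjusted p under 0.05 (27.1% of all genes). Limma called 0 of the 9 after this scaling, and 0.668% of all genes higher. With voom on the recovered read pairs, 7 of the 9 were called higher with library totals (background 15.3%) and 3 of the 9 (Smc1a, Rad21 and Sgo2a) with median scaling (background 6.48%). On the deposited FPKM, whether the 4 genes were called depended on which library was left out. The median log2 difference of the 9 genes was 0.41 without NSN replicate 1 and 0.51 without NSN replicate 2. It was 0.45 without SN replicate 1 and 0.44 without SN replicate 2. The same medians over all genes tested were 0.10, 0.16, 0.14 and 0.13, in that order. Each library pooled 15 oocytes, so a large difference in some of them cannot be told apart from a smaller one in all.

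**Figure D1:**
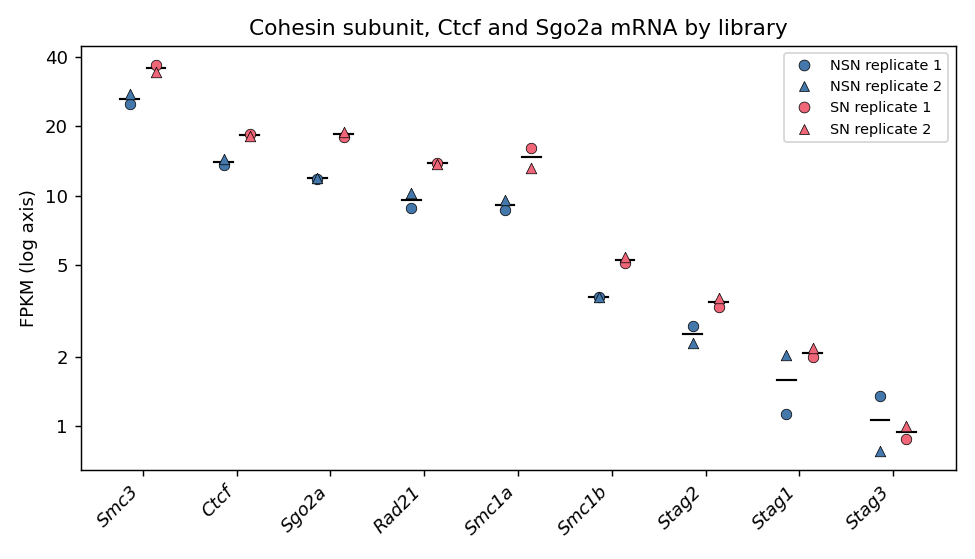
FPKM (log axis) of the 9 genes in the 2 NSN and 2 SN libraries, each point a library. The SN points lie above the NSN points for 7 genes, and those of Stag1 and Stag3 overlap between groups.

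**Figure D2:**
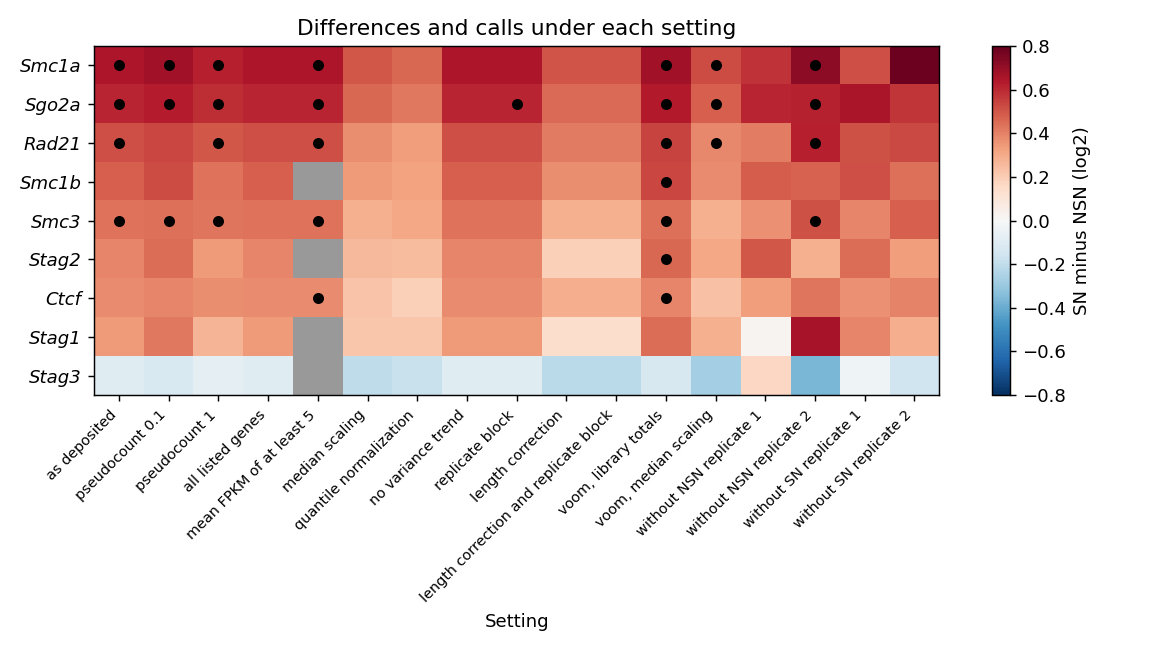
Heat map of the difference between SN and NSN in log2(FPKM + 0.5) (colour scale) for each of the 9 genes (vertical axis) under each setting (horizontal axis), with a black dot where the gene was called and grey where it did not pass the filter. The colours of 8 genes stay above 0 in all settings drawn, Stag3 turns above 0 only without NSN replicate 1, at 0.17, and 0 dots stand in the columns for median scaling of FPKM and quantile normalization.

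Smc1a (ENSMUSG00000041133.13, chromosome X of GRCm39 from 150799424 to 150846390), the SMC1 arm of all cells, had 8.69 and 9.59 FPKM in NSN and 16.1 and 13.2 FPKM in SN libraries, from 710 to 1287 read pairs. Both SN libraries were higher, although they differed from each other by more than the NSN libraries did. The means were 9.14 ± 0.64 and 14.7 ± 2.0 FPKM (SD, n = 2), and the log2 difference was 0.65 (standard error 0.13, limma adjusted p = 0.043). The median-scaled difference was 0.50 (limma adjusted p = 0.068).

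Smc3 (ENSMUSG00000024974.12, chromosome 19 from 53588818 to 53634295) is the other arm and is found in every cohesin ring, mitotic or meiotic. It had 24.9 and 27.6 FPKM in NSN and 36.8 and 34.6 FPKM in SN libraries, from 2107 to 3047 read pairs, and was the most abundant of the 9 in each library. The groups did not overlap, and the log2 difference was 0.43 (standard error 0.10, limma adjusted p = 0.047). Scaling by the median left a difference of 0.28 with a limma adjusted p of 0.101.

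Smc1b (ENSMUSG00000022432.9, chromosome 15 from 84948882 to 85016204), the meiotic SMC1 arm, had 3.65 and 3.63 FPKM in NSN and 5.12 and 5.41 FPKM in SN libraries. The 2 NSN values lay close together and both SN values were above them. Its log2 difference of 0.48 (95% interval 0.18 to 0.77) did not pass the threshold, with a limma adjusted p of 0.062. It was 0.34 after median scaling (limma adjusted p = 0.134).

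The kleisin Rad21 (ENSMUSG00000022314.12, chromosome 15 from 51825636 to 51855179), which closes the ring in somatic cells, had 8.80 and 10.3 FPKM in NSN and 13.9 and 13.7 FPKM in SN libraries. The 2 SN values nearly coincided, and both lay above the NSN values. The log2 difference was 0.52 (standard error 0.12, limma adjusted p = 0.047), and 0.37 after median scaling (limma adjusted p = 0.085). Rad21l, a meiotic kleisin, had 2.15 and 1.78 FPKM in NSN and 1.94 and 1.34 FPKM in SN libraries, from 40 to 62 read pairs, and its groups overlapped. Its share of the summed FPKM of Rad21 and Rad21l was 19.6% and 14.8% in NSN and 12.2% and 8.88% in SN libraries, lower in both SN libraries (exact permutation p = 0.333, the smallest that 2 against 2 libraries allow). Rad21l was named after its values were seen.

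The STAG subunits had the lowest FPKM of the 9 genes. Stag2 (ENSMUSG00000025862.16, chromosome X from 41238146 to 41368132) had 2.73 and 2.29 FPKM in NSN and 3.29 and 3.60 FPKM in SN libraries. The groups did not overlap, and the log2 difference of 0.39 (95% interval 0.04 to 0.75) did not pass the threshold (limma adjusted p = 0.131).

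Stag1 (ENSMUSG00000037286.17, chromosome 9 from 100479740 to 100841428), which like Stag2 is expressed in all cells, had 1.13 and 2.04 FPKM in NSN and 1.99 and 2.17 FPKM in SN libraries. NSN replicate 1 was low, at 122 read pairs, and NSN replicate 2 lay between the SN libraries. The log2 difference was 0.34 (95% interval -0.21 to 0.89, limma adjusted p = 0.347), and without NSN replicate 1 it was 0.02.

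Stag3 (ENSMUSG00000036928.16, chromosome 5 from 138278502 to 138310655), the meiotic STAG subunit, had 1.35 and 0.782 FPKM in NSN and 0.876 and 1.003 FPKM in SN libraries, from 59 to 99 read pairs. The highest and the lowest of these 4 values were both NSN. Its log2 difference was -0.10 (95% interval -0.63 to 0.43, limma adjusted p = 0.788), and it turned to 0.17 without NSN replicate 1. No difference was detected, and the interval admits one in either direction.

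Ctcf (ENSMUSG00000005698.17, chromosome 8 from 106362922 to 106409564), which binds DNA through its zinc fingers and halts loop extrusion by cohesin, had 13.5 and 14.5 FPKM in NSN and 18.6 and 18.1 FPKM in SN libraries, from 891 to 1235 read pairs. Both SN libraries were higher than both NSN libraries. The means were 14.0 ± 0.66 and 18.4 ± 0.31 FPKM (SD, n = 2). The log2 difference was 0.38 (standard error 0.10), with a limma adjusted p of 0.060 that missed the threshold, and after median scaling it was 0.23 (limma adjusted p = 0.16). Over the alternatives that kept all libraries it lay between 0.19 and 0.39, and Ctcf was called in 2 of these 12, with a filter at a mean of 5 FPKM and with voom on library totals. Of the exonic bases of Ctcf, 6.295% lie in other annotated genes (Agrp and Gm5914), and counting ignored strand.

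Sgo2a (ENSMUSG00000026039.11, chromosome 1 from 58024388 to 58065442), the shugoshin that protects centromeric cohesin in meiosis, had 11.9 and 11.9 FPKM in NSN and 17.9 and 19.0 FPKM in SN libraries. The NSN libraries were nearly equal, and the SN libraries stood well above them. The means were 11.9 ± 0.04 and 18.4 ± 0.75 FPKM (SD, n = 2), and the log2 difference was 0.61 (standard error 0.10, limma adjusted p = 0.036). The median-scaled difference was 0.46 (limma adjusted p = 0.058). Of the 50-base words in the canonical Sgo2a transcript, 44.3% also occur in transcripts of the overlapping gene Kctd18. The Sgo2a values therefore depend on how read pairs from the shared bases were counted, which was not tested. Kctd18 itself had 0.972 and 0.945 FPKM in NSN and 1.52 and 0.794 FPKM in SN libraries.

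**Figure D3:**
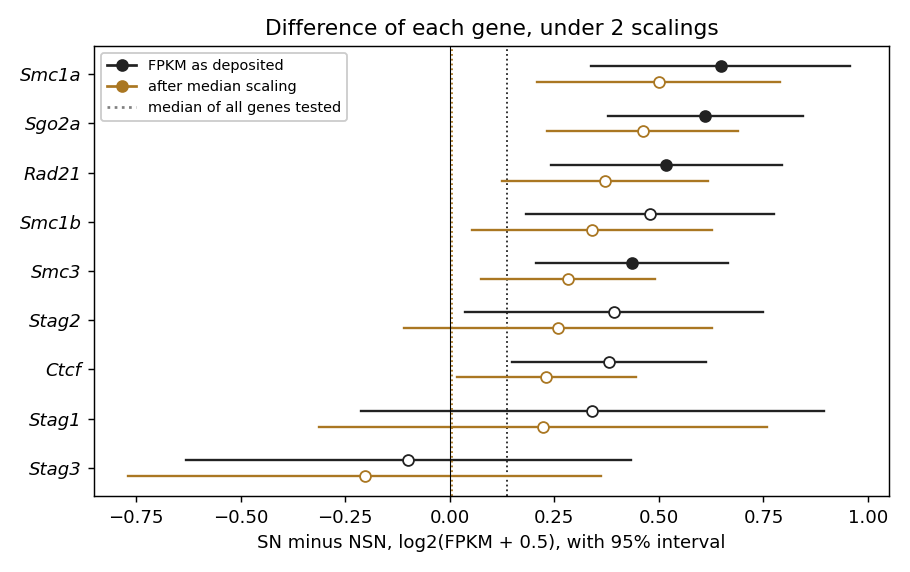
Difference between SN and NSN in log2(FPKM + 0.5) for each of the 9 genes with its 95% interval, on the deposited FPKM (black) and after median scaling (ochre). Filled points were called, and the dotted lines give the median of all genes tested, 0.14 and 0.01. The black points of 8 genes lie above 0.14, and after median scaling no point is filled.

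The order of the 9 genes by mean FPKM, which is per length, was alike in both groups. In NSN oocytes Smc3 (26.3 FPKM) was followed by Ctcf (14.0), Sgo2a (11.9), Rad21 (9.54), Smc1a (9.14), Smc1b (3.64), Stag2 (2.51), Stag1 (1.59) and Stag3 (1.07). The libraries of Rad21 and Smc1a overlapped, as did those of Stag1 and Stag3, and other neighbours were apart in both libraries. In SN oocytes Smc3 (35.7 FPKM) came first, the values of Sgo2a (18.4) and Ctcf (18.4) overlapped, as did those of Smc1a (14.7) and Rad21 (13.8), and Smc1b (5.27), Stag2 (3.45), Stag1 (2.08) and Stag3 (0.940) followed apart from each other. Smc3 lay between the 87.6 and 90.2 percentiles of all listed genes, and Stag3 between the 38.0 and 48.3 percentiles.

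Ratios between subunits within a library do not depend on how libraries are scaled, and they describe the balance of subunit RNA in each library. No correction for a trend with gene length was applied to them. The smallest two-sided p of an exact permutation test of 2 against 2 libraries is 0.333, so no ratio could pass a threshold of 0.05. The Smc1b share of the summed SMC1 FPKM was 29.6% and 27.4% in NSN and 24.2% and 29.0% in SN libraries. These shares overlapped (exact permutation p = 0.667), and the difference in means of -1.91 percentage points turned to 0.503 without SN replicate 1. The Stag3 share of the summed STAG FPKM was 25.9% and 15.3% in NSN and 14.2% and 14.8% in SN libraries. NSN replicate 1 stood apart from the other 3, and the difference in means of -6.08 percentage points was -0.777 without it.

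Stag2 was the largest of the STAG subunits in each library, with 52.4% and 44.8% of the STAG FPKM in NSN and 53.4% and 53.2% in SN. The ratio of Smc3 to its SMC1 partners was 2.02 and 2.09 in NSN and 1.74 and 1.85 in SN libraries, and the ratio of Smc3 to Rad21 was 2.84 and 2.69 in NSN and 2.64 and 2.51 in SN. In both ratios the SN libraries were the lower ones (exact permutation p = 0.333). The ratio of Ctcf to Rad21 was 1.54 and 1.41 in NSN and 1.34 and 1.32 in SN libraries, again lower in both SN libraries (exact permutation p = 0.333). These ratios are of RNA and say nothing of how many rings were assembled.

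**Figure D4:**
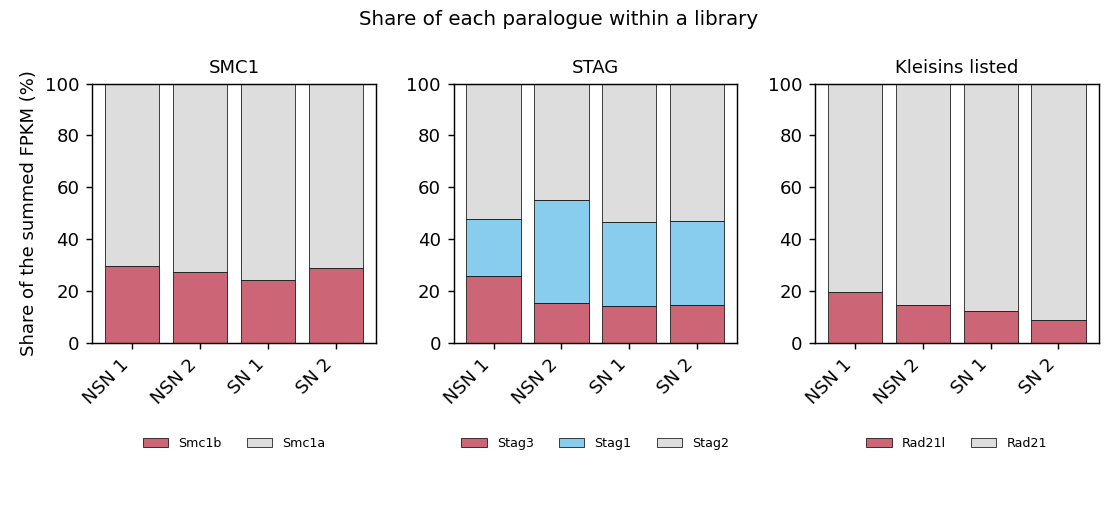
Share (%) of the summed FPKM held by each paralogue of SMC1 (Smc1a, Smc1b), STAG (Stag1, Stag2, Stag3) and the kleisins listed (Rad21, Rad21l) in each library. The Smc1b share lies between 24.2% and 29.6% with the groups overlapping, and the Stag3 share is highest in NSN replicate 1, at 25.9%.

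Cohesin regulators were read from a list of 24 genes that load, release, acetylate, cleave or protect cohesin, all of which were tested. Of these, 6 were called higher in SN oocytes and 0 lower, and 18 were not called, against the backgrounds of 5.95% and 1.98% above. The median log2 difference of the 24 was 0.12, close to the 0.14 of all genes, and after median scaling it was -0.03 with 0 called. All SN values lay above all NSN values for 11 regulators and below them for 7, against 44.8% and 17.8% of the genes tested. Whether regulators were called depended on which library was left out. Their median log2 difference then lay between 0.12 and 0.16, and that of all genes tested between 0.10 and 0.16.

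Among the genes for loading and release, Nipbl, which loads the ring and drives loop extrusion, had 4.62 and 5.76 FPKM in NSN and 9.31 and 8.61 FPKM in SN libraries. Both SN values were above both NSN values, and the log2 difference was 0.74 (standard error 0.14, limma adjusted p = 0.040). Wapl, which opens the ring and releases it from chromatin, had 39.8 and 45.2 FPKM in NSN and 59.9 and 63.5 FPKM in SN libraries, with a log2 difference of 0.53 (standard error 0.10, limma adjusted p = 0.038). Wapl exceeded Nipbl in each library, by 8.62 and 7.83 times in NSN and by 6.43 and 7.38 times in SN (exact permutation p = 0.333). Mau2, the partner of Nipbl, had 5.67 and 5.37 FPKM in NSN and 4.31 and 4.79 FPKM in SN libraries (log2 difference -0.26, limma adjusted p = 0.214). Mau2 was named after its values were seen.

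Esco1 and Esco2 both acetylate Smc3, which stabilises the ring. Esco1 had 20.9 and 25.0 FPKM in NSN and 34.1 and 32.1 FPKM in SN libraries, and was called higher (log2 difference 0.53, limma adjusted p = 0.045). Esco2 had 150.2 and 134 FPKM in NSN and 105 and 114 FPKM in SN libraries, and its log2 difference of -0.38 missed the threshold (limma adjusted p = 0.052). The ratio of Esco1 to Esco2 was 0.139 and 0.186 in NSN and 0.325 and 0.283 in SN libraries, so that the groups were apart within libraries (exact permutation p = 0.333). Esco2 and this ratio were picked out after their values were seen.

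The genes for protection and cleavage did not all lie on one side. Sgo1, the mitotic shugoshin, had 12.5 and 13.5 FPKM in NSN and 18.1 and 20.02 FPKM in SN libraries (log2 difference 0.54, limma adjusted p = 0.042). Sgo2b had 5.54 and 7.16 FPKM in NSN and 10.5 and 9.82 FPKM in SN libraries (log2 difference 0.65, limma adjusted p = 0.048), and 2.48% of the 50-base words of Sgo2a also occur in its transcripts. Ppp2ca, the catalytic subunit of the PP2A phosphatase that shugoshins recruit, had 2.72 and 2.68 FPKM in NSN and 4.92 and 4.74 FPKM in SN libraries (log2 difference 0.74, limma adjusted p = 0.038). The SN libraries were the higher ones for all 3 of these genes, and each was called. The ratio of Sgo2a to Sgo1 was 0.951 and 0.882 in NSN and 0.988 and 0.948 in SN libraries, and these overlapped (exact permutation p = 0.667).

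Espl1, the separase that cuts kleisin at anaphase, had 4.01 and 4.07 FPKM in NSN and 4.70 and 4.59 FPKM in SN libraries, with a log2 difference of 0.18 (limma adjusted p = 0.354) that was -0.03 after length correction. Pttg1, the securin that holds separase inactive, was far more abundant, at 682 and 669 FPKM in NSN and 549 and 579 FPKM in SN libraries. Its SN libraries were the lower ones, with a log2 difference of -0.26 (limma adjusted p = 0.064). In FPKM, Pttg1 RNA exceeded Espl1 RNA by 170 and 164 times in NSN and by 117 and 126 times in SN libraries (exact permutation p = 0.333).

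**Figure D5:**
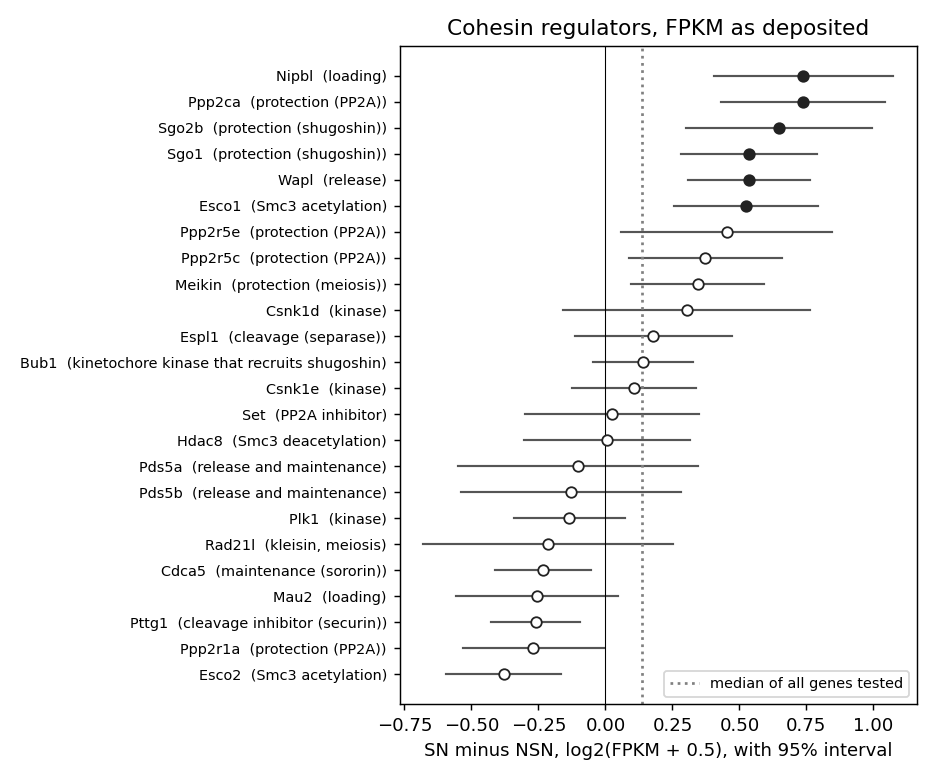
Difference between SN and NSN in log2(FPKM + 0.5) with its 95% interval for the 24 cohesin regulators, in order of the difference, with what each is known for in parentheses and the median of all genes tested (0.14) as a dotted line. The 6 filled points (Nipbl, Wapl, Esco1, Sgo1, Sgo2b and Ppp2ca) were called higher in SN, and the others were not called.

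Of 10 genes related to Ctcf (its paralogue and other architectural or partner proteins), 8 were listed and 6 were tested, and limma called 0 of them, with 2 (Chd8 and Taf3) at an unadjusted p under 0.05, against 31.7% of all genes tested. Ctcfl, the germline paralogue of Ctcf, and Adnp were not among the listed genes. Voom on library totals called 2 of the 6 higher (15.3% of all genes) and voom after median scaling 0 (6.48% of all genes). The remodeller Chd8 had 1.46 and 1.65 FPKM in NSN and 2.10 and 2.48 FPKM in SN libraries, and the TFIID subunit Taf3 had 44.6 and 47.7 FPKM in NSN and 54.3 and 57.6 FPKM in SN libraries. The SN libraries of both genes lay above the NSN libraries, and both genes were named after their values were seen. The list as a whole did not lean higher. The median log2 difference of the 6 tested genes was -0.08, and -0.22 after median scaling, against 0.14 and 0.01 for all genes. Both SN libraries lay above both NSN libraries for 2 of the 6 and below them for 3, against 44.8% and 17.8% of the genes tested.

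The other SMC complexes, condensin and the complex of Smc5 and Smc6, were set beside cohesin for comparison. Of their 14 genes, all tested, 2 were called higher and 0 lower, against 5.95% and 1.98% of all genes tested. Their median log2 difference was 0.16 on the deposited FPKM and 0.01 after median scaling, where 0 were called and 0.668% of all genes were called higher. On the deposited FPKM 13 of the 14 had a difference above 0 (66.7% of all genes). Smc2, of condensin, was the exception, at 10.6 and 9.04 FPKM in NSN and 7.69 and 6.66 FPKM in SN libraries. Its log2 difference was -0.42 (limma adjusted p = 0.088), and it was called lower with a filter at a mean of 5 FPKM. Smc2 was named after its values were seen. Smc6 had 16.8 and 19.3 FPKM in NSN and 24.7 and 25.8 FPKM in SN libraries (log2 difference 0.48, limma adjusted p = 0.047), and Nsmce4a, a kleisin of the same complex, had 14.1 and 17.5 FPKM in NSN and 25.1 and 23.5 FPKM in SN libraries (log2 difference 0.62, limma adjusted p = 0.044). Whether any of the 14 were called depended on which library was left out. Their median log2 difference then lay between 0.10 and 0.22, and that of all genes tested between 0.10 and 0.16. The lists were not tested against each other. The share of 4 of 9 for the cohesin subunits, Ctcf and Sgo2a together is therefore not shown to differ from these.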

How the data were processed

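Smart-seq2 libraries of 15 oocytes each were grouped by their labels into 2 NSN and 2 SN libraries. Per the study's methods and the labels, the authors trimmed reads with Trim Galore 0.6.10, aligned them with HISAT2 (genome build GRCm39), assigned read pairs to exons in featureCounts without strand, and deposited FPKM from their own script. Values weigh polyadenylated RNA, since cDNA was primed at the poly(A) tail. The comparison used by the authors (DESeq2 on counts) and their ATAC-seq and other assays were not used here.

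The genes and lists were chosen with earlier results of these data known. All 10 genes chosen by symbol were to be named, with every gene called in the other lists (up to 12 per list) and Nipbl, Wapl, Sgo1, Espl1 and Pttg1 whatever their values. The 4 libraries list the same genes. Library totals were recovered from 5 mitochondrial tRNA genes, and whole read pairs, within 1e-05 of a whole number, for 16842 genes (99.887%), of which the length of 170 was set to a multiple that equals the canonical transcript. Read pairs limit the precision of each value. Genes whose mean FPKM reached 0.5 were tested (11672), and log2(FPKM + 0.5) was compared with limma 3.58.1 in R 4.3.3 (eBayes with a variance trend, Benjamini-Hochberg adjustment over all of them), with a call at adjusted p under 0.05 and a fold of at least 1.2. The log2 differences understate the change of low genes. All p-values are two-sided, and ratios were tested by exact permutation. The limma fit was tested on 3 simulated data sets. Alternatives were pseudocounts of 0.1 and 1, other filters and thresholds, quantile normalization, median scaling, a block for the replicate number, eBayes without the trend, a loess correction for recovered gene length (span 0.3), voom on recovered read pairs, and each library left out in turn, where the lone library is assumed to vary like the other group. For condensin and the Smc5 and Smc6 complex the same alternatives were added after the data were seen. Positions, exons, promoters and transcripts came from a later GENCODE release on GRCm39, in which 97.764% of symbols occur once and exonic lengths were 1.57 times the recovered ones at the median. The promoter of 1 gene is not reported here. Python 3.11.15 with pandas 2.3.3, scipy 1.17.1 and matplotlib 3.10.9 was used.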

Additional observations from a re-analysis of the deposited data

How the results depend on the processing

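Groups of 2 libraries limit the precision, and every limma p rests on pooling the variance over genes. The 926 calls over all genes became 2370 at an adjusted p under 0.1, 1496 with a mean of at least 5 FPKM, 257 after median scaling (78 higher and 179 lower in SN, against 695 and 231), 230 after quantile normalization (74 higher, 156 lower), 2323 with voom on library totals and 1726 with voom after median scaling (756 higher, 970 lower). They became 0 with all listed genes, with no variance trend and with length correction with or without the block, although 4092, 3449, 3127 and 2758 genes had an unadjusted p under 0.05 there. Leaving out each library in turn gave 0 to 1685 calls.

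Of the 9 genes (cohesin subunits, Ctcf and Sgo2a), 4 were called on the deposited FPKM, 7 with voom on library totals, and 0 with all listed genes, median scaling, quantile normalization, no variance trend or length correction (with or without the block), and 0 to 4 with each library left out. The 6 calls among regulators became 0 under those same alternatives, 11 with voom after median scaling (6 higher, 5 lower), and 0 to 7 with each library left out. The Ctcf-related genes had 0 calls, 1 at an adjusted p under 0.1 (Taf3) and 2 with voom on library totals. For condensin and the Smc5 and Smc6 complex, with alternatives chosen after seeing the data, the 2 calls became 4 at an adjusted p under 0.1, with a mean of at least 5 FPKM and with voom on library totals, 0 under the alternatives that gave 0 for regulators and under the replicate block, and 0 to 2 with each library left out. The cause of these changes was not tested.

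The log2 differences of the 9 genes kept their direction and their side of the threshold in 71 values from alternatives with all libraries, lost the call in 29 and gained it in 4, and 0 reversed. With each library left out, 23 values kept both, 12 lost the call and 1 reversed, that of Stag3, which ranged from -0.36 to 0.17 (without NSN replicate 1). The Smc1b share difference lay between -4.32 and 0.503 percentage points and the Stag3 share difference between -11.4 and -0.777. The Rec8 share of kleisins could not be computed, since Rec8 is not among the listed genes.

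The correlation over genes of the replicate differences between groups was -0.07, and the fit without the replicate block was kept. With 1 difference per group this cannot settle whether same-numbered libraries were paired, and the labels do not say. With the block, 422 genes were called (266 higher, 156 lower), 1 of the 9 genes (Sgo2a), 1 regulator and 0 of the condensin and Smc5 and Smc6 genes.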
